A study of Mus musculus with 8 samples.

Results

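Lpl, Cd36, Fabp4, Fabp5, Fasn, Scd1, Scd2 and Plin2, genes of lipid uptake, binding, synthesis and storage, were followed in the developing mouse lung. Every probe set whose only annotated gene symbol was one of these was taken, whatever its value, which gave 13 of the 12488 probe sets of the array and 8 of the 8252 genes with such a probe set. The tips were those of secondary alveolar septa, cut by laser capture (a microscope-guided way of lifting chosen areas) from frozen lung sections of C57/Bl6 mice at postnatal day 6, and each collection comprised 10000 of them from many animals. They were set against pooled whole lung of C57/Bl6 mice of the same age, and the labels name no mutant allele or treatment for either group. Tips and lung were prepared side by side in experiment 1 and again, with other litters, in experiment 2, and each amplified RNA was put on 2 Affymetrix arrays at different times. There were thus 4 arrays but only 2 RNA samples per group. Both groups are pools of animals and both hold several cell types. Whole lung also contains the septal tips themselves.

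Lipoprotein lipase, the product of Lpl, splits the triglycerides of circulating lipoproteins, and the membrane protein encoded by Cd36 takes up the long-chain fatty acids that are set free. Fabp4 and Fabp5 encode proteins that bind fatty acids inside the cell, Fasn encodes the enzyme that builds palmitate, and Scd1 and Scd2 encode desaturases that turn saturated fatty acids into monounsaturated ones. Plin2 encodes perilipin 2, a coat protein of lipid droplets. In the neonatal rodent lung, lipofibroblasts of the alveolar wall store neutral lipid in such droplets, and alveolar type II cells use fatty acids to make the phospholipids of surfactant.

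The deposited values were MAS5 signals, linear intensities that the authors had scaled to a common level on each array. Median signals were 787 to 924 on tip arrays and 501 to 572 on lung arrays. Background, taken as the 95th percentile of 19 bacterial and yeast control probe sets, lay between 487 and 1244 on tip arrays and between 314 and 568 on lung arrays, so a dim transcript was harder to see in tips. Differences below are log2 differences, tips minus lung, with their standard error, and p-values are limma's, adjusted by the Benjamini-Hochberg method over the 7453 probe sets tested. The median difference over all of these was 0.35, so a gene at 0 lay below the typical one.

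Of the 13 probe sets, 11 were bright enough to be tested. Among them 2 were higher in tips (Scd2 and Fasn), 2 were lower in tips (Lpl and Scd1) and 7 did not pass the threshold of 0.05. Of all probe sets tested, 28.3% passed, 14.5% higher and 13.7% lower in tips, which leaves little between the members' counts and this background. By the brightest probe set of each gene, 3 of 7 member genes were called, against 29.7% of all genes. With quantile normalization 37.3% of all calls were the higher ones and with median centring 13.6%, against 51.5% here. The tip and lung arrays did not overlap at those 4 probe sets and overlapped at the other 7, while 42% of all tested probe sets showed no overlap, 24.1% with the tips above and 18% with the tips below. Where a gene had several probe sets, they are told apart below as the brighter and the dimmer one (Lpl), or by the ending f_at, g_at or r_at of the name, which marks designs with less selective probes, against the unmarked one. In whole tissue a smaller number of cells of a type and less RNA per cell cannot be told apart.

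**Figure D1:**
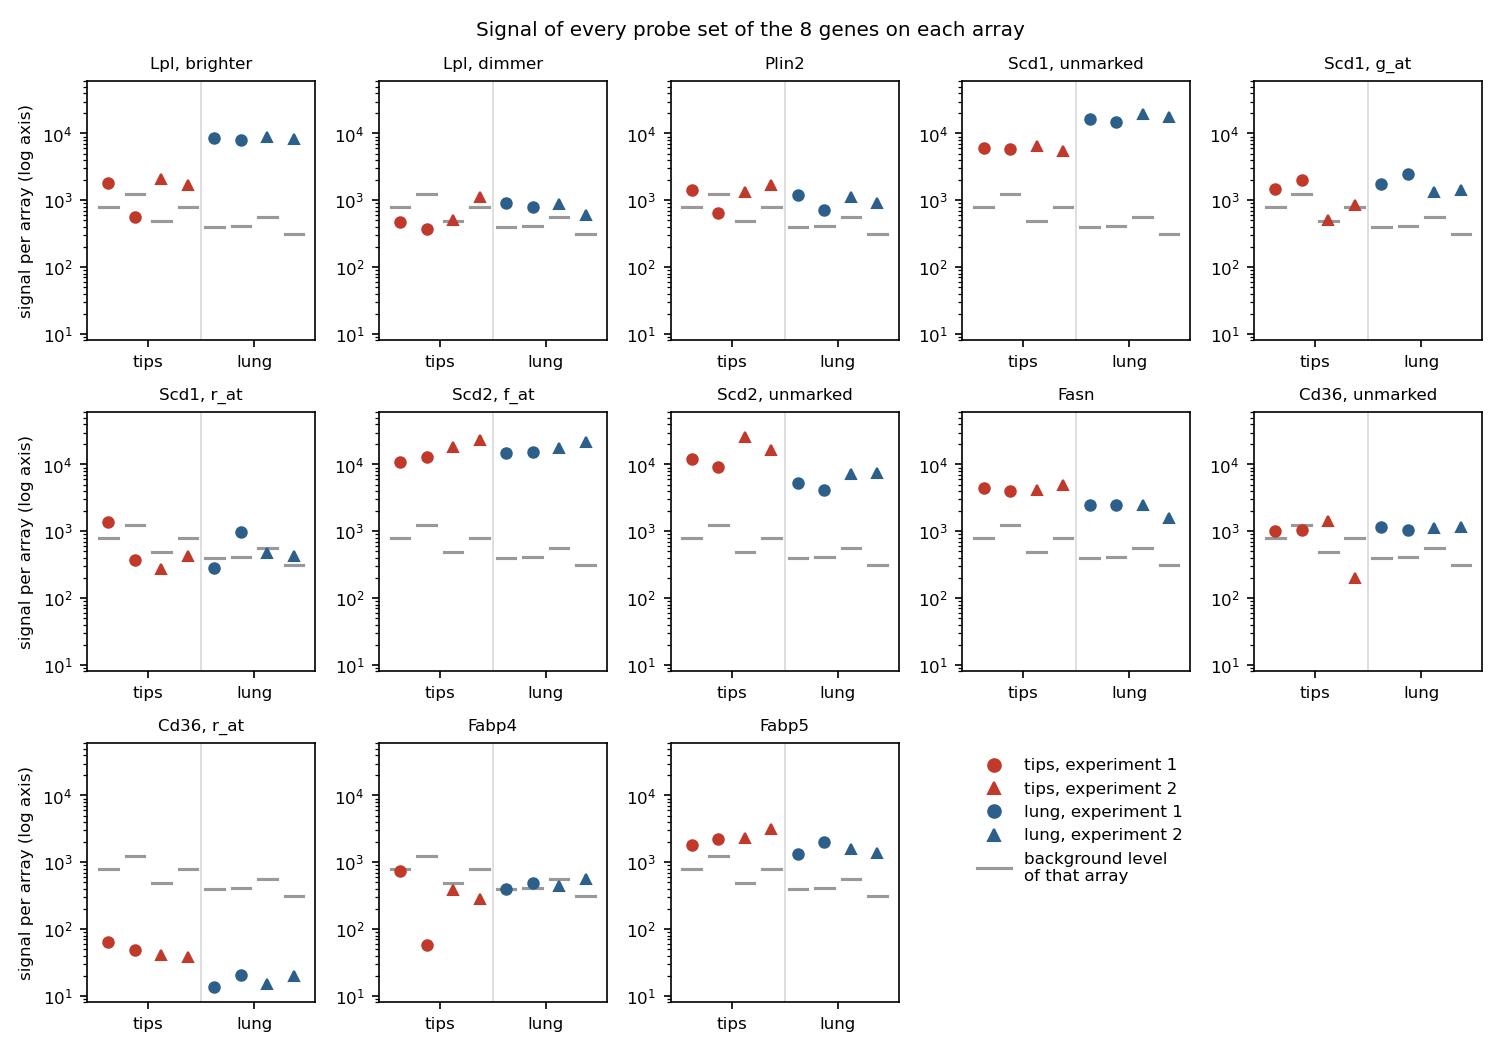
Signal on each array (log axis, arbitrary units) of the 13 probe sets, with the 4 tip arrays left of the 4 lung arrays in each panel, circles for experiment 1, triangles for experiment 2 and grey bars for the background of that array. All tip arrays lie below all lung arrays for the brighter Lpl and the unmarked Scd1 probe set and above them for the unmarked Scd2 probe set and Fasn.

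Of the genes of lipid uptake, Lpl was lower in tips. Its brighter probe set read 1793 and 571 on the tip arrays of experiment 1 and 2062 and 1675 on those of experiment 2, against 8657 and 8021 on the lung arrays of experiment 1 and 8831 and 8304 on those of experiment 2. All 4 tip arrays thus lay far under all 4 lung arrays, and the lowest, array 2 of the tips of experiment 1, was the only one under background. The mean was 1525 ± 486 in tips and 8453 ± 161 in lung (SD, n = 2 RNA samples each), which is 5.54-fold lower in tips. The log2 difference was -2.48 ± 0.34 (limma adjusted p = 0.00193, 95% interval -3.25 to -1.71), at -2.84 in experiment 1 and -2.12 in experiment 2. It passed under all 28 other settings tried, between -3.10 and -2.10.

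The dimmer Lpl probe set did not show this. It read 472, 368, 508 and 1107 on tip arrays, against 911, 802, 877 and 595 on lung arrays, and the groups overlapped through array 2 of the tip RNA of experiment 2, which was the brightest of all 8 arrays. The difference was -0.38 ± 0.45 (limma adjusted p = 0.532, 95% interval -1.39 to 0.62), and 2 of the 4 tip arrays were above background. The 2 Lpl probe sets thus differed from each other by 2.10, at 2.02 in experiment 1 and 2.17 in experiment 2. Such disagreement was common on these arrays: of 896 genes with several tested probe sets, 433 had at least 1 call, and in 78.8% of these some probe sets passed and others did not. The spread between the Lpl probe sets was larger than that of 87.5% of the 896 genes.

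Cd36 was not called at the probe set that could be tested. At its unmarked probe set the tip arrays read 1005, 1056, 1440 and 200, against 1173, 1058, 1112 and 1146 on lung arrays. The lung arrays lay close together, while the tip arrays of experiment 2, which carried the same RNA, differed 7.20-fold. Only 2 tip arrays but all 4 lung arrays were above background, and the tip array at 200 was under it. The difference was -0.44 ± 0.40 (limma adjusted p = 0.424, 95% interval -1.35 to 0.48), and it was 0.11 without array 2 of that tip RNA. The r_at probe set of Cd36 read between 38.0 and 63.6 on tip arrays and between 13.4 and 20.3 on lung arrays, under background on all 8 arrays, so no fold is given.

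The genes of the intracellular binding proteins were not called either. Fabp5 read 1834, 2219, 2296 and 3109 on tip arrays, against 1338, 1988, 1599 and 1382 on lung arrays. The tip array was the brighter of each of the 4 matched pairs, yet the groups overlapped through array 1 of the tip RNA and array 2 of the lung RNA of experiment 1. The difference was 0.53 ± 0.33 (limma adjusted p = 0.237, 95% interval -0.21 to 1.28), which is 0.18 above the median of all probe sets, and it was -0.08 with median centring. Fabp4, known as an adipocyte and macrophage gene and also expressed in capillary endothelium, was under the filter on dim probe sets and was not tested. It read 731, 57.4, 391 and 287 on tip arrays, under background on all 4, against 395, 492, 446 and 571 on lung arrays, above background on 3. The tip arrays of experiment 1 differed 12.7-fold for the same RNA, and the mean lung signal of 476 did not exceed the background of any tip array, so no fold is given. Fabp4 and Fabp5 lie near each other in the RefSeq gene order, with the protein-coding genes Pmp2 and Fabp9 between them.

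Fasn, the fatty acid synthase gene, was higher in tips. Its probe set read 4450, 3967, 4145 and 4916 on tip arrays, against 2491, 2470, 2467 and 1609 on lung arrays. The groups did not overlap, and 3 lung arrays were nearly equal while array 2 of the lung RNA of experiment 2 stood lower. The means were 4369 ± 227 in tips and 2259 ± 313 in lung (SD, n = 2 RNA samples each), a 1.93-fold difference in signal. The log2 difference was 0.92 ± 0.30 (limma adjusted p = 0.0484, 95% interval 0.24 to 1.61), at 0.73 in experiment 1 and 1.12 in experiment 2. The call was a narrow one and passed in 9 of 28 other settings. It was lost without any 1 of 6 of the arrays, at 0.78 without the low lung array (limma adjusted p = 0.0824) and between 0.86 and 0.96 without the others (limma adjusted p between 0.0545 and 0.0770). It was also lost without the tip RNA of experiment 2, at 0.87 (limma adjusted p = 0.0503), and when the lung RNA of experiment 1 or 2 was left out, at 1.07 and 0.78 (limma adjusted p = 0.166 and 0.280). With median centring it was 0.29 (limma adjusted p = 0.579).

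The 2 desaturase genes, which are neighbours in the RefSeq gene order with the protein-coding gene Scd4 between them, moved in opposite directions at 1 probe set each. Scd1 was lower in tips at its unmarked probe set, which read 6120, 5923, 6425 and 5519 on tip arrays, against 16452, 14720.0, 19744 and 17896 on lung arrays. Replicate arrays were close in both groups, and no tip array came near a lung array. The difference was -1.49 ± 0.29 (limma adjusted p = 0.00753, 95% interval -2.15 to -0.83), a 2.87-fold lower signal in tips, at -1.35 in experiment 1 and -1.63 in experiment 2. It passed in 26 of 28 other settings. The exceptions were quantile normalization, at -0.97 (limma adjusted p = 0.0509), and leaving out the lung RNA of experiment 2, at -1.36 (limma adjusted p = 0.0683).

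The other probe sets of Scd1 were not called. At the g_at probe set the tip arrays read 1489, 1996, 504 and 856, against 1778, 2497, 1314 and 1439 on lung arrays. The tip array was the dimmer of each of the 4 matched pairs, but the groups overlapped, and the difference was -0.59 ± 0.46 (limma adjusted p = 0.346). That value rested on experiment 2: it was -1.19 without the tip RNA of experiment 1 (limma adjusted p = 0.0279) and 0.015 without that of experiment 2. At the r_at probe set only 1 tip array and 2 lung arrays were above background, and the difference was 0.03 ± 0.49 (limma adjusted p = 0.972), with a sign that turned in 10 other settings.

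Scd2 was higher in tips at its unmarked probe set, with 12049 and 9080 on the tip arrays of experiment 1 and 26039 and 16669 on those of experiment 2, against 5368, 4113, 7322 and 7380 on lung arrays. Every tip array was above every lung array, and experiment 2 was brighter than experiment 1 in both groups. The means were 15959 ± 7629 in tips and 6046 ± 1846 in lung (SD, n = 2 RNA samples each), a 2.64-fold difference in signal. The log2 difference was 1.31 ± 0.40 (limma adjusted p = 0.0379, 95% interval 0.41 to 2.20), at 1.13 in experiment 1 and 1.48 in experiment 2. It passed in 17 of 28 other settings and not, among others, with median centring, at 0.66 (limma adjusted p = 0.336). It also did not pass without the tip RNA of experiment 2, at 0.81 (limma adjusted p = 0.0902), or without the lung RNA of experiment 1 or 2, at 0.99 and 1.62 (limma adjusted p = 0.241 and 0.0747). Of single arrays, it was lost without array 1 of the tips of experiment 1 (limma adjusted p = 0.0785) or array 2 of those of experiment 2 (limma adjusted p = 0.0596).

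The f_at probe set of Scd2 was not called. It read 10953, 13017, 17963 and 23357 on tip arrays, against 14752, 15349, 17471 and 21563 on lung arrays, so the groups overlapped throughout. The difference was -0.13 ± 0.36 (limma adjusted p = 0.807, 95% interval -0.94 to 0.69), and it was 0.62 with quantile normalization and 0.57 with cyclic loess. For the closely related desaturase genes shared signal between probe sets cannot be told apart here. Between the 2 unmarked probe sets, Scd2 minus Scd1, the change was unequal by 2.80, at 2.48 in experiment 1 and 3.12 in experiment 2. That pair was picked after its values were seen and is a description.

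**Figure D2:**
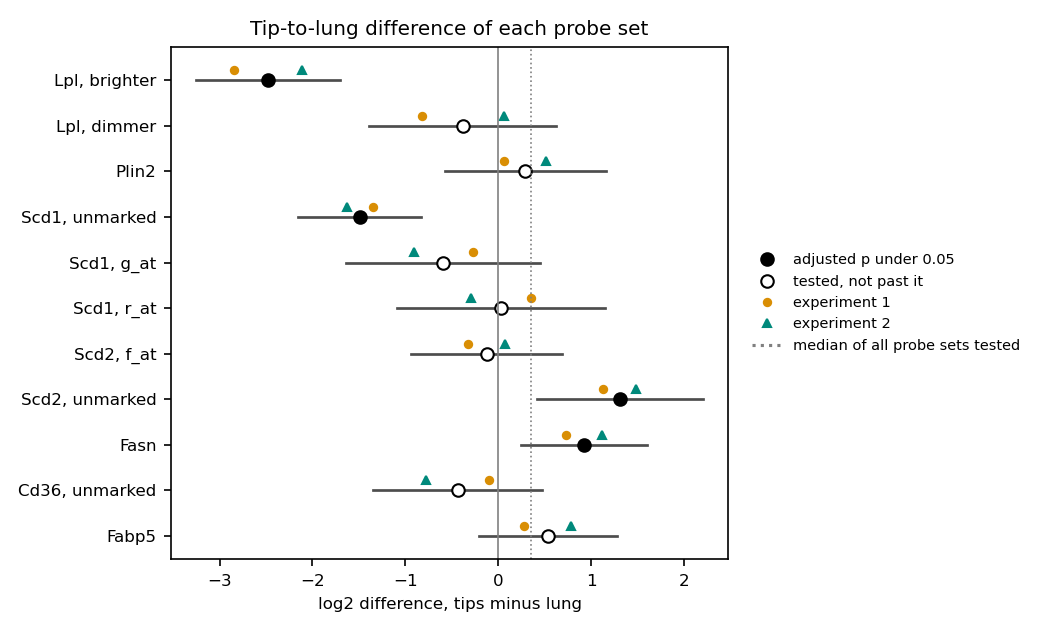
Log2 difference, tips minus lung, of the 11 tested probe sets, with the 95% interval as a bar, filled points for an adjusted p under 0.05, and small circles and triangles for experiments 1 and 2. The dotted line at 0.35 is the median of all probe sets tested. The brighter Lpl probe set at -2.48 and the unmarked Scd1 at -1.49 lie left of 0, and the unmarked Scd2 at 1.31 and Fasn at 0.92 lie right of the dotted line.

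Plin2, the droplet coat gene that is used as a lipofibroblast marker, was not called. It read 1432, 651, 1337 and 1718 on tip arrays, against 1202, 713, 1136 and 903 on lung arrays, with overlap between the groups. In experiment 1, array 2 was the dimmer one for tips and for lung. The difference was 0.29 ± 0.38 (limma adjusted p = 0.587, 95% interval -0.58 to 1.16), close to the median of all probe sets, and it was negative with quantile normalization (-0.18), median centring (-0.29) and cyclic loess (-0.09).

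Relative to the median of all probe sets, the called members stood at -2.83 for Lpl, -1.84 for Scd1, 0.96 for Scd2 and 0.57 for Fasn. The decreases of Lpl and Scd1 kept their direction under all 28 other settings, as did the increases of Scd2 and Fasn, but the increases lost their call more often. Neither Scd2 nor Fasn passed without the lung RNA of experiment 1 or 2 or the tip RNA of experiment 2, although both differences stayed above 0.

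**Figure D3:**
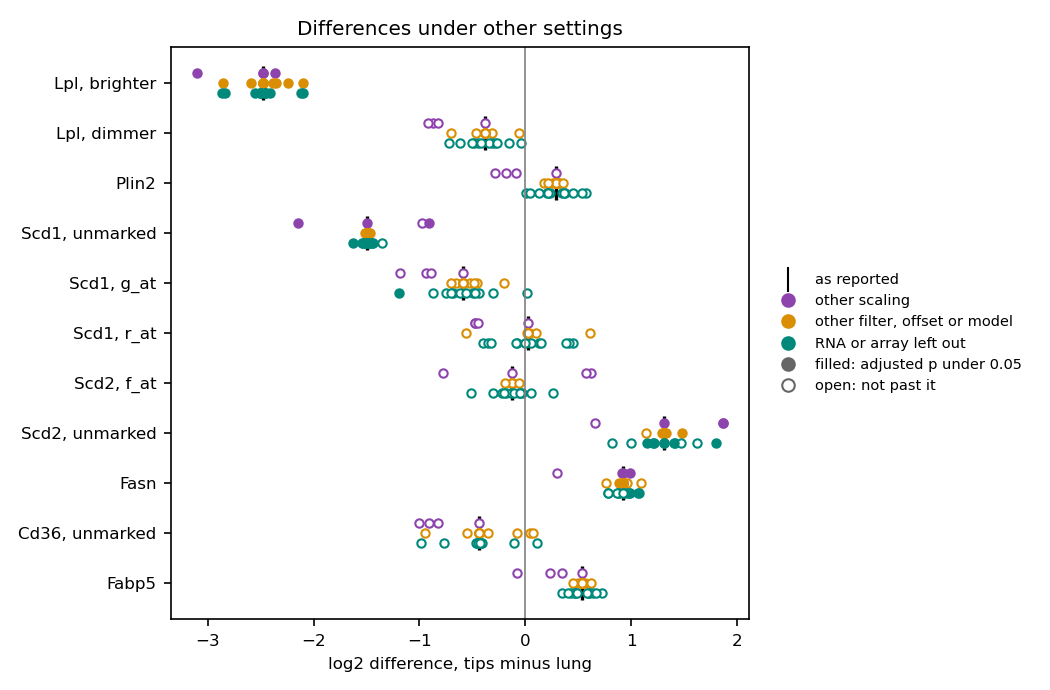
Log2 difference, tips minus lung, of the 11 tested probe sets as reported (black tick) and under other scalings (purple), other filters, offsets or models (orange) and with an RNA sample or array left out (green), filled where the adjusted p was under 0.05. The brighter Lpl probe set is filled throughout, between -3.10 and -2.10, while Fasn is filled in 9 of 28 settings.

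Over the 8 arrays the log2 signal of the brighter Lpl probe set followed that of the unmarked Scd1 probe set (Pearson r = 0.94) and ran against that of Fasn (r = -0.83), and Scd1 ran against Fasn (r = -0.93). The 8 arrays come from 4 RNA samples and 2 groups, so these values mostly restate the group differences. Among the brightest probe sets of all genes, those most like Lpl were Pnrc2 (r = 0.995) and Hspa5 (r = 0.994), and those most like Scd1 were Uba3 (r = 0.997) and Peg3 (r = 0.996). Those most like Fasn were Cryge (r = 0.987) and Clpp (r = 0.982). For the genes that were not called the likest were Usp5 (r = 0.987) and Dnajc2 (r = 0.927) for Plin2, Pdcd2 (r = 0.960) and Nsa2 (r = 0.954) for Cd36, and Clip3 (r = 0.980) and Vax1 (r = 0.966) for Fabp5. Scd2, whose brightest probe set is the f_at one, was most like Klf7 (r = 0.978) and Sf1 (r = 0.944).

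The wider lipid pathways were described by 7 further lists, with each gene represented by its brightest probe set. Over all 5642 genes tested, 14.6% were higher and 15.1% lower in tips, with a median difference of 0.31. Of the 88 further lipid genes tested, 15 were higher and 13 lower in tips, with a median of 0.35, so the lists as a whole were near the background. Without the lung RNA of experiment 1 these limma counts were 0 and 4 (14 and 16 at an unadjusted p under 0.05), and without that of experiment 2 they were 4 and 5. Of the 15 higher genes 4 passed under all 4 other scalings, and of the 13 lower ones 11 did.

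Among the further genes of fatty acid synthesis more were lower than higher in tips. Of 11 tested, 1 was higher and 5 were lower in tips, with a median of -0.49. That median was the value of Slc25a1, which was not called at its brightest probe set (limma adjusted p = 0.251). The other tested probe set of Slc25a1 was called higher in tips, at 1.58 ± 0.32 (limma adjusted p = 0.00880). Me1, which encodes the malic enzyme that supplies NADPH, had a signal of 498 ± 140 in tips, under background on all 4 arrays, against 5540 ± 645 in lung, and lung was at least 7.02-fold brighter than the tip background (limma adjusted p = 0.00111). Elovl5, an elongase of polyunsaturated fatty acids, differed by -2.46 ± 0.33 and Hsd17b12, the ketoacyl reductase of chain elongation, by -1.83 ± 0.35. Mid1ip1, which encodes an activator of acetyl-CoA carboxylase, differed by -1.84 ± 0.44, and Acly, which supplies cytosolic acetyl-CoA, by -1.19 ± 0.36, a call lost with quantile normalization (limma adjusted p = 0.122) and cyclic loess (limma adjusted p = 0.0935). Mid1ip1 was above background on 2 tip arrays only, and its other probe set was too dim to be tested. With all values under the highest background set to it, Mid1ip1 was at -0.42 (limma adjusted p = 0.378). Acly did not pass there either (limma adjusted p = 0.0932), while Me1, Elovl5 and Hsd17b12 did. Elovl1, an elongase of very long chains, was called higher in tips (1.01 ± 0.32, limma adjusted p = 0.0444) but passed in only 1 of 4 other scalings and only 1 of the 4 fits without an RNA sample. Of the fatty acid synthesis genes, Me1 and Elovl5 passed under all 4 other scalings and whichever RNA sample was left out.

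As scaled here, the calls among genes of uptake and of droplet turnover were higher ones, but the counts in each direction moved with the scaling. The genes called here stayed above 0 under all 4 other scalings. Of 11 genes of uptake and binding, 3 were higher and 0 lower in tips with limma, or 5 and 2 at an unadjusted p under 0.05, with a median of 0.71. They were Lipe, the hormone-sensitive lipase gene (2.15 ± 0.41, with lung above background on 2 of 4 arrays), Lrp1, a lipoprotein receptor gene (1.97 ± 0.42), and Scarb1, the receptor gene for high-density lipoprotein (1.42 ± 0.37). Lipe was placed in this list but encodes a lipase rather than an uptake or binding protein, and it was also counted among the adipocyte markers. Of 13 genes of triglyceride synthesis and droplets, 3 were higher and 0 lower, or 6 and 1 unadjusted, with a median of 0.61. These were G0s2, which encodes an inhibitor of triglyceride lipase (1.66 ± 0.36), Mgll, the monoacylglycerol lipase gene (1.65 ± 0.31), and Pnpla2, the adipose triglyceride lipase gene (1.31 ± 0.35). None of these 6 passed without the lung RNA of experiment 1, and Lrp1 alone passed without that of experiment 2. With median centring the uptake genes gave 2 higher and 2 lower calls and the droplet genes 0 higher and 2 lower. Quantile normalization, cyclic loess and the experiment as a block each gave 1 lower call in both lists. With all values under the highest background set to it, Lrp1 and Mgll passed and the other 4 did not, among them Lipe at 0.58 (limma adjusted p = 0.129). Angptl4, of the uptake list, was not called at its brightest probe set (0.28 ± 0.34). Another of its probe sets was called higher in tips (1.57 ± 0.38, limma adjusted p = 0.0167), and a further tested one gave -0.84 ± 0.39 (limma adjusted p = 0.129).

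Of 9 regulators of lipid genes, 2 were higher and 0 lower in tips, or 4 and 0 unadjusted, with a median of 0.82: Nr1h3, the liver X receptor alpha gene (1.98 ± 0.39), and Rxrb, a retinoid X receptor gene (1.31 ± 0.35). Rxrb lost its call with median centring (limma adjusted p = 0.239) and with the higher floor (limma adjusted p = 0.0758), while Nr1h3 passed in both. Neither call held without the lung RNA of experiment 1. Srebf1, whose product drives transcription of fatty acid synthesis genes, gave 1.28 ± 0.43 (limma adjusted p = 0.0506). It passed where the experiment was a block (limma adjusted p = 0.0176) and in none of 4 other scalings, at 0.68 with median centring (limma adjusted p = 0.270), nor with the higher floor (limma adjusted p = 0.214). Pparg, the master regulator of fat cell genes, was under background on all 8 arrays and was not tested, as were Fabp1 and Fabp3. Acaca, Acsl1 and Abca3 had no probe set with a single symbol.

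Of 14 genes of surfactant phospholipid, 3 were higher and 3 lower in tips, with a median of 0.64. Sftpc, the surfactant protein C gene, averaged 102537 ± 5425 in tips and 27130 ± 8140 in lung (1.95 ± 0.40, limma adjusted p = 0.00856), and Sftpb gave 0.69 ± 0.31 (limma adjusted p = 0.119). Npc2, which encodes a lysosomal cholesterol-binding protein, was also higher, by 1.24 ± 0.35. Pgs1, an enzyme gene of phosphatidylglycerol synthesis, was called at 1.76 ± 0.50, although only 2 tip arrays and 1 lung array were above background. Its groups overlapped, with 3168, 875, 2015 and 331 on tip arrays, against 966, 91.7, 181 and 151 on lung arrays. Npc2 and Pgs1 each passed in only 1 of the 4 fits without an RNA sample, and Pgs1 in only 1 of 4 other scalings. Chpt1, the cholinephosphotransferase gene, was under background on every tip array, with lung at least 4.05-fold brighter, and Etnk1, the ethanolamine kinase gene, differed by -2.33 ± 0.34. Pcyt1a, which controls the rate of phosphatidylcholine synthesis, differed by -1.35 ± 0.32 at its brightest probe set and by 0.32 ± 0.46 at the other. Sftpc, Chpt1 and Pcyt1a (brightest probe set) lost their calls without the lung RNA of experiment 1, and Pcyt1a also without that of experiment 2.

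Of 13 genes of cholesterol synthesis, 2 were higher and 2 lower in tips, with a median of -0.40. Idi1 (isopentenyl diphosphate isomerase) and Hmgcs1 (the synthase ahead of the rate-limiting reductase) were under background on every tip array, with lung at least 2.96-fold and 2.16-fold brighter, while Fdps (farnesyl diphosphate synthase) and Tm7sf2 (a sterol reductase) were higher in tips by 1.72 ± 0.40 and 1.12 ± 0.29. Fdps was above background on 2 lung arrays only and lost its call with the higher floor, at 0.35 (limma adjusted p = 0.0989), and its other tested probe set gave 0.52 ± 0.63 (limma adjusted p = 0.555). Idi1 and Hmgcs1 lost their calls with that floor too, at -0.82 and -0.40 (limma adjusted p = 0.106 and 0.0806), while Tm7sf2 passed. When the lung RNA of either experiment was left out, none of Idi1, Hmgcs1, Fdps and Tm7sf2 passed. With median centring the sterol genes gave 0 higher and 3 lower calls. Of 17 genes of fatty acid oxidation, 1 was higher and 3 were lower, with a median of 0.05. Acads was counted by its brightest probe set, which was not called. Its dimmer one was called higher (2.18 ± 0.44, limma adjusted p = 0.00834), with no lung array above background. Etfa, an electron carrier subunit of the pathway, differed by -2.53 ± 0.33, the medium-chain dehydrogenase gene Acadm by -1.36 ± 0.32 and the carnitine palmitoyltransferase gene Cpt1a by -1.14 ± 0.33, while Cpt2 was called higher by 1.10 ± 0.35. Cpt2 passed in only 1 of 4 other scalings and only 1 of the 4 fits without an RNA sample. Cpt1a passed in 2 of 4 other scalings and was lost with quantile normalization and cyclic loess (limma adjusted p = 0.201 and 0.190). Cpt1a and Acadm also lost their calls when the lung RNA of either experiment was left out, while Etfa kept its call in all of these fits. With median centring the oxidation genes gave 0 higher and 6 lower calls, and with quantile normalization 0 and 2.

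**Figure D4:**
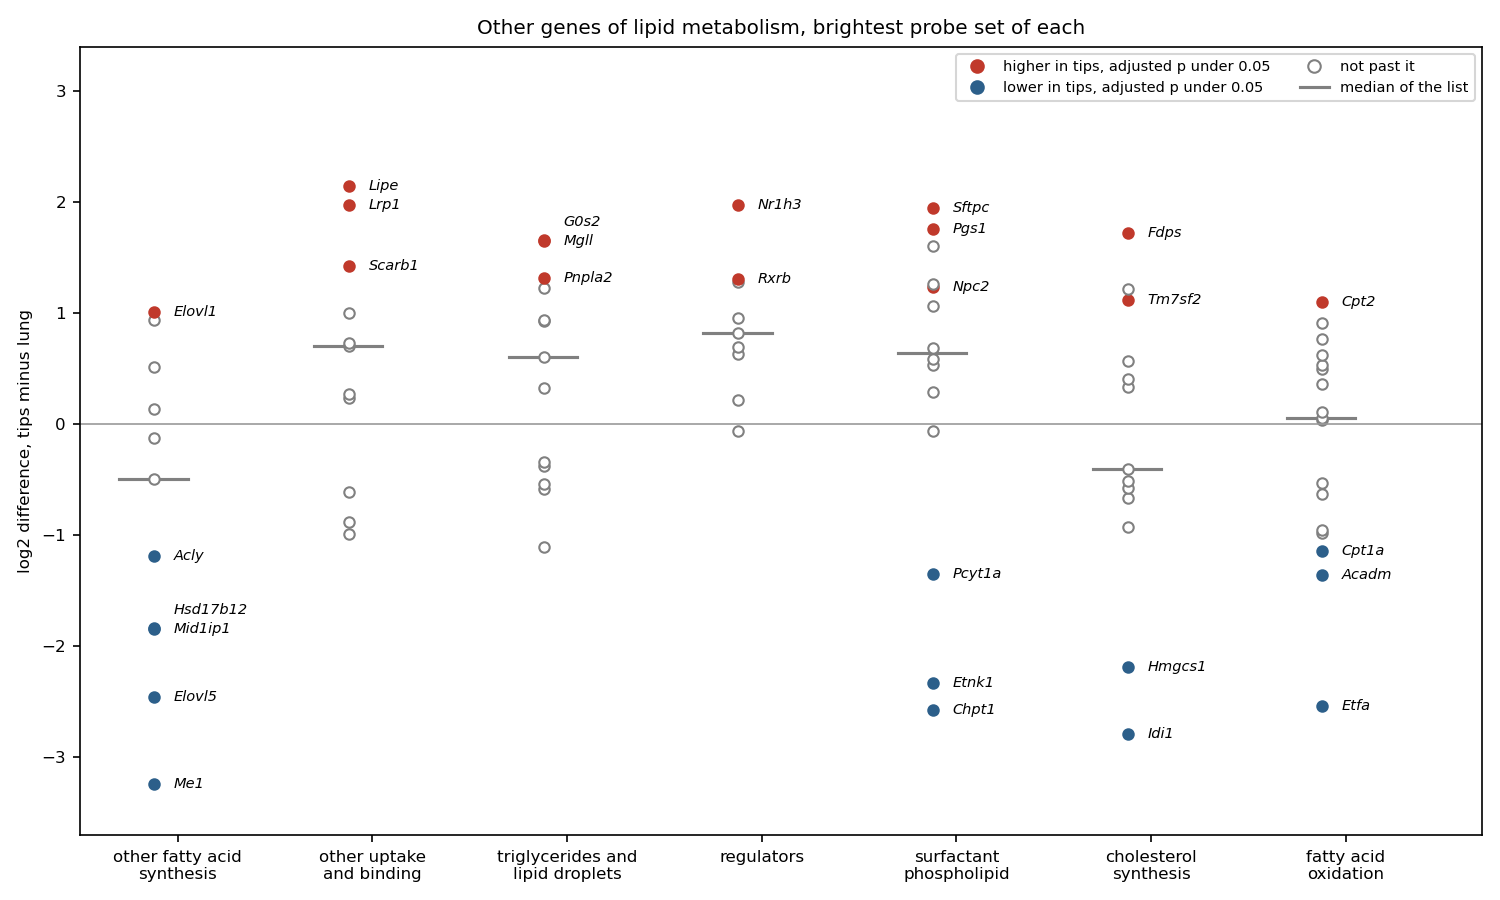
Log2 difference, tips minus lung, of each tested gene of the 7 further lipid lists (brightest probe set), in red where higher and blue where lower in tips at an adjusted p under 0.05, grey where not past it, with the list median as a bar. Medians lie between -0.49 for fatty acid synthesis and 0.82 for regulators. Me1, Chpt1, Idi1 and Hmgcs1 are drawn at their measured values, although all their tip arrays were under background and only bound the difference.

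Markers of several cell types also differed between the groups, and their part in the members' differences was not tested. The summed signal of 10 lipofibroblast and alveolar fibroblast markers lay between 77611 and 113564 on tip arrays and between 149572 and 161080 on lung arrays, and with limma 0 of the 9 tested were higher and 4 lower in tips (Meox2, Vcam1, Col13a1 and Limch1, at their brightest probe sets), or 1 and 5 unadjusted. At another tested probe set each, Vcam1 and Col13a1 were higher in tips without passing (limma adjusted p = 0.0533 and 0.186). That of Limch1 was lower without passing (limma adjusted p = 0.286). Limch1 lost its call with quantile normalization and cyclic loess (limma adjusted p = 0.195 and 0.175). Col13a1 lost it with quantile normalization (limma adjusted p = 0.0641). Meox2 and Vcam1 passed under all 4 other scalings. Fgf10, which marks lipofibroblast precursors, was under background on all arrays. The summed signal of 6 type II cell markers lay between 115488 and 127388 in tips and between 30376 and 47671 in lung, most of it from Sftpc, with 2 of 6 higher. That of 13 endothelial markers lay between 383555 and 398094 in tips and between 118358 and 165591 in lung, with 5 of 12 higher and 2 lower. Eng alone gave 77.0% of the tip sum and 53.4% of the lung sum, and without it the range was 72997 to 106156 in tips and 63488 to 70469 in lung. Tek (-1.72 ± 0.29) and Emcn (-1.64 ± 0.30) were the lower ones. For macrophages the sum of 14 markers lay between 34831 and 52007 in tips and between 53750 and 79193 in lung, with 0 of 12 higher and 2 lower, or 0 and 3 unadjusted. That order rested on Ctss, a lysosomal protease gene, which averaged 4041 in tips and 34692 in lung. Without it the sum was 31412 to 46823 in tips and 27056 to 35853 in lung, and the median difference of the tested markers was 0.49. For adipocytes, brown ones included, the sum of 7 markers was between 6367 and 10280 in tips and between 2814 and 3682 in lung, and Lipe was the only 1 of 4 tested that passed. Most of these markers were near background: Lipe alone was above it on all tip arrays and Lep alone on all lung arrays, and Cidec, which encodes a droplet protein of fat cells, was under it on all 8. The background of 7 probe sets would itself sum to 3406 to 8709 in tips and 2198 to 3977 in lung, so the adipocyte sums give no order.

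Some markers of further cell types were called higher in tips as well. Of 7 smooth muscle and myofibroblast markers, 5 were higher and 0 lower with limma, or 5 and 0 unadjusted, with a median of 1.22 and a sum of 35617 to 51691 in tips and 18135 to 43159 in lung. Of 4 airway markers, 2 were higher and 0 lower, or 3 and 0 unadjusted, with a median of 1.27 and a sum of 34618 to 85547 in tips and 15021 to 25098 in lung. Most of that sum was Scgb1a1, the club cell secretory protein gene, at 53091 in tips and 17323 in lung. Of 3 red cell markers tested, 1 was higher and 0 lower, or 1 and 0 unadjusted, with a median of 1.16, and the sum of 4 was 15295 to 77311 in tips and 6757 to 29549 in lung. With median centring Tagln, a smooth muscle actin-binding protein gene, passed, while the smooth muscle genes Actg2, Myh11 and Myl9, the airway genes Foxj1 and Scgb1a1 and the red cell gene Slc4a1 did not (limma adjusted p between 0.0588 and 0.304). The sums without Eng, Ctss and Acta2 were added after the sums were seen.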

How the data were processed

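Septal tips and whole lung were measured on 8 Affymetrix arrays. The deposited values are linear signal intensities. MAS5 made them, per the submitters' processing notes (no version given). Trimmed means between 1500.6 and 1501.2 show that the authors had already brought the arrays to a common level. The labels' protocols give RNA extraction with a PicoPure kit and biotin labelling. They state amplification for the tips and for 1 lung array only, while the design text has it for all RNA. Groups were taken from sample titles, since the tip descriptions speak of whole lung. Detection calls were not used here, and the genome build is not given in the sources used here.

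Arrays were rescaled to their common trimmed mean (2% left out at each end). An offset of 150.1, 10% of that mean, went in before log2, which understates differences of dim probe sets. The 66 control probe sets and those under the 40th percentile of mean log2 signal were left out, leaving 7453. Of all probe sets 10855 carried 1 symbol, 396 several and 1237 none here, and symbols were updated by gene ID to the GRCm38.p6 RefSeq table. Arrays of an RNA were averaged first. The comparison used limma 3.58.1 under R 4.3.3 (lmFit, eBayes with trend, Benjamini-Hochberg, threshold 0.05), with 2 residual and 7.05 prior degrees of freedom and a median standard error of 0.40. The number of RNA samples, 2 per group, limits the precision. Where a group was under background on all its arrays, its level per array was the higher of background and signal, and the fold is a lower bound.

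Named genes were all probe sets of the 8 genes, up to 4 called genes per list by smallest p, Pparg, Acaca, Acly, Srebf1, Acsl1, Pcyt1a, Abca3, Sftpc, Sftpb, Fabp1 and Fabp3, and per member the 2 likest genes by Pearson r. Elovl1, Npc2 and Pgs1 complete counts, and Acads and Angptl4 had a call at a probe set other than the brightest. These genes were added after their values were seen. The members and lists were chosen with earlier results of these data known. Other scalings, offsets, filters, floors, models and left-out RNA samples were tried, and leaving out single arrays was added after seeing the data. The experiment number marks shared preparation in the design text and so pairs the RNA samples. Their deviations correlated at 0.0452. The code was tested on simulated data: with noise at the fitted moderated spread it recovered the sign and size of changes, and with the raw spreads shuffled over probe sets it called none of the changed ones.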

Additional observations from a re-analysis of the deposited data

Results flagged for a closer look

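Of 26 groups of 4 arrays examined (the tip and the lung arrays of each of the 13 probe sets), 1 held an array far from the others. For Fasn, array 2 of the lung RNA of experiment 2 read 1608.5, while the other 3 lung arrays read between 2466.8 and 2490.8. Chance would mark about 1 in 20 groups of 4 independent, normally distributed values. The groups here hold 2 arrays of each of 2 RNA samples, so that rate is only a rough guide. Without that array the difference of Fasn was 0.78 (limma adjusted p = 0.0824), against 0.92 (limma adjusted p = 0.0484) with it.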

How the results depend on the processing

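The Fasn, Scd2, Scd1 and Lpl calls kept their direction in all 28 other settings, while the number of members called changed. Over all probe sets 2106 passed (1084 higher and 1022 lower in tips), 2452 with the experiment as a replicate block, which changed no member's call. Higher calls were 608 with quantile normalization, 252 with median centring (1604 lower), 533 with array 1 only (1263 in all) and 686 with array 2 only. With values under 1244, the highest background, set to it, 826 passed, 255 higher and 571 lower. The 2 members higher in tips became 1 with quantile normalization, with an offset of 2%, with the filter at the 20th percentile and with array 1 only, and 0 with median centring, no filter, either floor (the second at 792), no trend or array 2 only. The 2 lower became 1 with quantile normalization. Of the further lipid genes (15 higher, 13 lower), 9 were higher with quantile normalization, 4 with median centring (22 lower), 5 with the higher floor (8 lower), 8 with array 2 only, and 20 lower with RNA as a random block. Leaving out an RNA sample or array gave 424 to 3301 calls in all, 93 to 1838 higher and 331 to 1463 lower. Members gave 0 to 2 higher and 1 to 3 lower, and the further lipid genes 0 to 24 higher and 4 to 20 lower. The lowest counts came without the lung RNA of experiment 1 (424) or 2 (589), the highest without the tip RNA of experiment 2 (3301), and the lone sample was assumed to vary like the other group.

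Signs turned only at uncalled probe sets. Plin2 was -0.18, -0.29 and -0.093 with quantile normalization, median centring and cyclic loess, and Fabp5 -0.077 with median centring. The r_at probe set of Scd1 was -0.48, -0.48 and -0.45 with those 3 scalings and -0.56 with array 2 only. The f_at probe set of Scd2 was 0.62 with quantile normalization and 0.57 with cyclic loess, and the unmarked one of Cd36 0.047 with the higher floor and 0.069 with array 1 only. With an RNA sample or array left out, the r_at probe set of Scd1 lay between -0.40 and 0.45, the g_at one between -1.19 and 0.015, the f_at probe set of Scd2 between -0.51 and 0.26 and the unmarked one of Cd36 between -0.98 and 0.11. The cause of these shifts was not tested. The r_at probe set of Cd36 and all tip arrays of Fabp4 were under background, which leaves their differences unmeasured.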
